A study of Mus musculus with 48 samples.

Results

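NF-Y is a transcription factor made of 3 different proteins, encoded by Nfya, Nfyb and Nfyc, and it binds the CCAAT box found in many gene promoters. NFYB and NFYC pair through histone folds, the fold by which core histones pair in the nucleosome, and NFYA then joins the pair and reads the CCAAT sequence. The complex is best known for promoters of cell cycle, cholesterol and fatty acid synthesis and endoplasmic reticulum stress genes, often next to sites for other factors such as SREBP. The members were chosen by gene symbol, as the rows of Nfya, Nfyb and Nfyc in a gene count table, 3 of the 55414 genes listed. No expression value entered that choice.

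RNA was sequenced from whole liver of 48 FCG mice, in 8 groups of 6. FCG is a model made to separate the causes of sex differences, in which Sry, the testis-determining gene, is lost from the Y chromosome and carried as an autosomal transgene, so that sex chromosomes (XX or XY) and gonads (ovaries, Ov, or testes, Te) vary independently. The 4 genotypes, XX Ov, XX Te, XY Ov and XY Te, were studied with gonads in place (Intact) or after gonadectomy (GDX) at 75 days of age. All mice ate a high-fat diet (HFD) from 15 to 17 weeks of age, for 11 weeks in Intact mice and for 15 weeks in GDX mice according to the sample records. The study's methods give other durations, but both sources give GDX mice the longer diet. Every mouse with testes also carried the Sry transgene and no mouse was on another diet, so gonadal type and transgene cannot be told apart. Likewise, loss of the gonads cannot be told apart from the longer diet, or from the age and cohort of the GDX mice.

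Each library held between 13071874 and 20045141 reads on genes (median 16577748), so that 3 reads correspond to 0.150 to 0.230 CPM, the unit used below, in which a gene's reads are scaled to all reads on genes of its library. The tissue label was checked against 6 hepatocyte markers, among them Alb and Ttr, whose summed level was 59439 to 138621 CPM in Intact mice and 66618 to 103089 CPM in GDX mice. Libraries differed in make-up between the cohorts. Mapped reads counted on no gene feature were 3.47% to 6.20% of the reads in the table in Intact mice. In GDX mice they were 8.52% to 11.3%, with no overlap. They are called reads outside genes below, although they may include reads within introns, which were not separated. Unmapped reads exceeded 11% in 5 libraries, 4 of them XY Te Intact and 1 XX Te Intact (highest 16.5%). Without these 5, XY Te Intact keeps only replicates 5 and 6. Values without these 5 are given where they change the call of a subunit or of Pnpla3, or move a list's counts most.

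The genes lie on 3 autosomes. On the mouse build NCBIM37, which is older than the GRCm39 build named for the read mapping, Nfya (ENSMUSG00000023994) spans chr17:48526210-48549231, Nfyb (ENSMUSG00000020248) chr10:82211446-82226889 and Nfyc (ENSMUSG00000032897) chr4:120430043-120504177, all on the minus strand. Pnpla3 (ENSMUSG00000041653), which encodes a lipid droplet protein and whose promoter the study followed as a site of NF-Y action, spans chr15:83998246-84019942 on the plus strand. Values rest on read counts per gene, and the exons and transcript forms of a gene were not separated. Reads within introns may instead be among the mapped reads counted on no gene feature.

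Promoter windows from RefSeq (GRCm38.p6), running from 250 bases before to 50 bases after each annotated start, were searched for the letters CCAAT on both strands, which read ATTGG on the printed strand when the box lies on the other one. A box was present in 37.4% of all 32851 windows. Nfyb had 1 window with no box, Nfya had 3 windows of which 1 held a single box, and Nfyc had 3 windows holding 0, 5 and 3 boxes. Windows with 4 or more boxes made up 1.06% of all windows. The Nfyc window with 5 boxes and the single Pnpla3 window are shown because they are a subunit gene's own promoter and the promoter the study followed, and the Nfya box is shown with its flanks for comparison. Letters run 5′ to 3′ along each gene's own strand and capitals mark the boxes.
Nfyc, second window, chr4:120825160-120825459, minus strand: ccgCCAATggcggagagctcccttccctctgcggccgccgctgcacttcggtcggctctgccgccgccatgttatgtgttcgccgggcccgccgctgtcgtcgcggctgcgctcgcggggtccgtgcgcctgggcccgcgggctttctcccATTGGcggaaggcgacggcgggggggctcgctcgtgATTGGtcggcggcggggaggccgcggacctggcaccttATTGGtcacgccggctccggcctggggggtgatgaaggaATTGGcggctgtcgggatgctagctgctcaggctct
Pnpla3, chr15:84167566-84167865, plus strand: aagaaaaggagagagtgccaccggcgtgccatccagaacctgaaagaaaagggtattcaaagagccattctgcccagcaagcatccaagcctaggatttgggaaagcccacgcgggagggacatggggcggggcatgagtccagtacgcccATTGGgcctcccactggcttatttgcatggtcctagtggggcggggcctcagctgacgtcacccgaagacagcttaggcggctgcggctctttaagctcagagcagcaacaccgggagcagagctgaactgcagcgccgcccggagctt
Nfya, box in the third window, chr17:48400531-48400830, minus strand: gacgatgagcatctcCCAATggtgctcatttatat
Counted from the start, the Nfyc boxes began at bases -247, -99, -63, -25 and 14, the Pnpla3 box at base -99 and the Nfya box at base -137. These matches describe letters and no binding was measured in these libraries.

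All 3 subunits were read in every mouse, with 89 to 498 reads for Nfya (median 243), 332 to 737 for Nfyb (median 474.5) and 106 to 302 for Nfyc (median 212). Levels are given as CPM scaled by the trimmed mean of M-values (TMM), which sets libraries to a common middle, with mean ± SD over 6 mice. Corrected for exon length, the order of the subunits over all 48 mice was Nfyb at 5.82 CPM per kilobase, Nfyc at 4.21 and Nfya at 1.99 (means of TMM-scaled values). The length joined the exons of all annotated transcripts, 7315 bases for Nfya and 2942 for Nfyc. Without that correction Nfya was above Nfyc, at 14.6 and 12.4 CPM, so their order depends on it. In bulk liver, fewer cells of a type and less RNA per cell cannot be told apart.

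Nfya, the subunit that reads the CCAAT box, varied most between groups. Among Intact mice the lowest, median and highest levels were 8.67, 10.7 and 13.7 CPM in XX Ov (10.9 ± 1.94) and 9.32, 10.8 and 13.6 CPM in XX Te (11.1 ± 1.62). They were 11.0, 14.2 and 17.1 CPM in XY Ov Intact (14.0 ± 2.22) and 7.55, 11.4 and 15.1 CPM in XY Te Intact (11.5 ± 3.22). The 4 Intact groups overlapped, and the widest spread was in XY Te Intact. After GDX, Nfya stood at 13.8, 15.0 and 15.7 CPM in XX Ov (14.9 ± 0.658) and 13.2, 14.8 and 15.6 CPM in XX Te (14.5 ± 1.02). It stood at 17.4, 19.6 and 22.9 CPM in XY Ov GDX (20.0 ± 2.17) and 15.0, 19.9 and 24.8 CPM in XY Te GDX (19.6 ± 3.94). Both XY GDX groups therefore had higher means than both XX GDX groups, and XX GDX mice lay close together.

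Nfyb, a histone-fold subunit, had its highest group mean in XX Ov Intact, with 28.8, 33.7 and 39.9 CPM as lowest, median and highest (34.1 ± 3.82). The other Intact groups had means of 30.3 ± 3.56 CPM in XX Te, 28.2 ± 4.91 CPM in XY Ov and 31.5 ± 4.74 CPM in XY Te, within a range over all Intact mice of 20.5 to 39.9 CPM. The 4 GDX groups were narrower, with means of 28.0 ± 1.38 CPM in XX Ov, 28.0 ± 1.92 CPM in XX Te, 28.2 ± 2.33 CPM in XY Ov and 27.5 ± 1.87 CPM in XY Te. Every GDX mouse lay between 24.8 and 32.2 CPM, inside the Intact range.

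Nfyc, the other histone-fold subunit, separated Intact from GDX mice more than it separated genotypes. Intact means were 11.1 ± 1.47 CPM in XX Ov, 11.0 ± 1.84 CPM in XX Te, 10.9 ± 1.13 CPM in XY Ov and 11.6 ± 1.52 CPM in XY Te, with mice between 8.18 and 13.1 CPM. GDX means were 13.1 ± 1.12 CPM in XX Ov, 14.4 ± 1.89 CPM in XX Te, 13.3 ± 1.06 CPM in XY Ov and 13.8 ± 1.28 CPM in XY Te, with mice between 11.1 and 17.9 CPM. Of the 24 GDX mice, 20 lay above every Intact mouse.

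**Figure D1:**
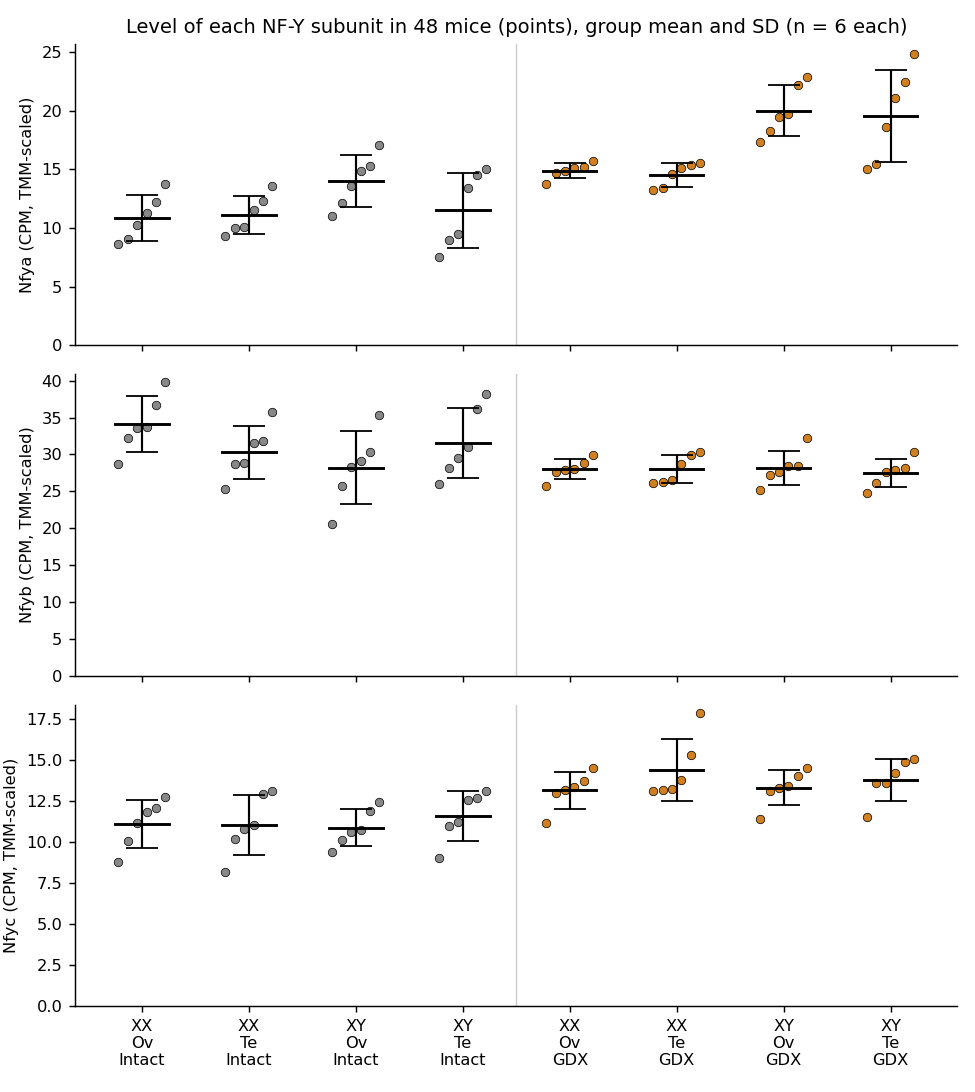
TMM-scaled CPM of Nfya, Nfyb and Nfyc in each of the 48 mice (points), by genotype and gonadal status, with the mean and SD of each group of 6. The 2 XY GDX groups hold the highest Nfya means (20.0 and 19.6 CPM), all 4 Nfyc GDX means (13.1 to 14.4 CPM) exceed all 4 Intact means (10.9 to 11.6 CPM), and the Nfyb groups overlap.

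Ordered by mean, Nfya ran from XY Ov GDX and XY Te GDX through XX Ov GDX, XX Te GDX and XY Ov Intact to XY Te Intact, XX Te Intact and XX Ov Intact. None of the 21 pairs of neighbours in the 3 orders differed beyond their spread by a two-sided exact permutation test after Benjamini-Hochberg adjustment. The nearest to it was the step in Nfya from XY Te GDX to XX Ov GDX, 4.70 CPM (exact p = 0.0173, adjusted p = 0.364). For Nfyc the widest step lay between XX Ov GDX and XY Te Intact, 1.57 CPM (exact p = 0.0584, adjusted p = 0.614). Nfyb ran from XX Ov Intact to XY Te GDX in steps of at most 2.65 CPM. Neighbours were picked by these same means as the closest pairs, and the exact test of 6 against 6 cannot give a p below 0.00216. These tests therefore say little about differences between groups further apart.

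The ovariectomy effect compared mice that had lost ovaries with mice that kept them, over both sex chromosome types. Nfya rose, with every XX Ov GDX mouse above every XX Ov Intact mouse and every XY Ov GDX mouse above every XY Ov Intact mouse. The log2 fold change was 0.48 with a standard error of 0.10 (edgeR quasi-likelihood test, adjusted p = 3.02e-05), and the ratio of means was 1.37 in XX and 1.43 in XY mice. Nfyc rose by a log2 fold change of 0.27 (SE 0.07, edgeR adjusted p = 0.00153), with 10 of 12 ovariectomized mice above every mouse with ovaries. Nfyb had a log2 fold change of -0.14 (SE 0.07) and did not pass the test (edgeR adjusted p = 0.0553). Its ratio of means was 0.820 in XX and 0.999 in XY mice. Thus 2 of 3 subunits passed, where 69.4% of all 15414 tested genes did, so the share among the subunits is near the background.

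The castration effect asked the same of mice with testes. Nfya rose by a log2 fold change of 0.57 (SE 0.10, edgeR adjusted p = 3.1e-06), with ratios of means of 1.31 in XX and 1.70 in XY mice. In XX mice 4 of 6 castrated animals lay above all Intact ones, and in XY mice 5 of 6 did. Nfyc rose by 0.32 (SE 0.07, edgeR adjusted p = 0.000276), and 11 of 12 castrated mice lay above every mouse with testes. Nfyb fell by 0.16 on the log2 scale (SE 0.07, edgeR adjusted p = 0.0431), but scaling by library totals in place of TMM turned this value to 0.048 (edgeR adjusted p = 0.632). The Nfyb call held in 4 of 10 alternatives and in 38 of 48 fits that each left out 1 mouse, and without the 5 libraries over 11% unmapped the value was -0.19 and did not pass (edgeR adjusted p = 0.0620). All 3 subunits passed, against 63.3% of tested genes.

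Rises and falls after GDX are relative to the other genes of a library. With library totals in place of TMM, the median log2 fold change of all tested genes moved from 0.06 to 0.27 for ovariectomy and from 0.07 to 0.27 for castration. A change of scaling shifts all genes of a contrast nearly alike, so values relative to that median stay put for any gene and test nothing. Nfya stood at 0.42 against 0.41 for ovariectomy and 0.50 against 0.50 for castration, TMM against library totals. Nfyc stood at 0.21 against 0.20 and at 0.25 against 0.24, and Nfyb at -0.20 against -0.20 and at -0.22 against -0.22. The share of calls that were higher moved from 51.9% to 66.2% for ovariectomy and from 52.8% to 69.5% for castration.

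The make-up of the libraries moved with GDX, and its part in these results was not tested apart from GDX. With the share of reads outside genes as a covariate, the fitted log2 fold changes turned to -0.50 and -0.44 for Nfya and to -0.25 and -0.21 for Nfyc, in the ovariectomy and castration effects, and none passed (edgeR adjusted p = 0.376, 0.326, 0.598 and 0.594). Under this covariate, 20 genes passed for ovariectomy, against 10695 without it. The ranges of the covariate do not overlap between Intact and GDX mice, so these fits extend a relation within cohorts beyond the values seen. Markers of stellate cells, the collagen-forming cells of liver, rose in 3 of 5 after each operation, while 1 fell after ovariectomy. Biliary markers rose in 3 of 4 and 2 of 4. Counted in either direction, the passing shares of these 2 lists are near the 69.4% and 63.3% of all tested genes. Of 15414 tested genes, 5554 rose after ovariectomy and 5147 after castration. Median log2 fold changes were 1.2 and 0.84 for stellate and 0.82 and 0.61 for biliary markers, against 0.06 and 0.07 over all tested genes. Of 4 neutrophil markers, 1 rose and 3 fell after ovariectomy (median -2.3), and 1 rose and 2 fell after castration (median -1.9). Of 6 lymphocyte markers, 3 fell after ovariectomy and 1 rose after castration. Macrophage markers rose in 2 and fell in 1 of 5 after ovariectomy, and rose in 3 after castration. Hepatocyte markers rose in 2 and fell in 3 of 6, then rose in 1 and fell in 2. Endothelial markers rose in 1 and fell in 1 of 4, then rose in 2 and fell in 1. No marker was at 0 in all mice of a group.

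The castration and ovariectomy effects did not differ detectably in any subunit. The difference of the effects was 0.09 (SE 0.14, edgeR adjusted p = 0.701) for Nfya, -0.01 (SE 0.10, edgeR adjusted p = 0.956) for Nfyb and 0.05 (SE 0.10, edgeR adjusted p = 0.781) for Nfyc. Of all tested genes, 5.6% passed in this contrast.

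The gonadal effect compared Intact mice with ovaries and with testes. No subunit passed, while 25.3% of tested genes did. Nfya had a log2 fold change of 0.12 (SE 0.10, edgeR adjusted p = 0.350) for ovaries against testes, from means of 12.4 and 11.3 CPM. Nfyb had 0.01 (SE 0.07, edgeR adjusted p = 0.947) and Nfyc -0.04 (SE 0.07, edgeR adjusted p = 0.704). After GDX, mice that had carried ovaries or testes had log2 fold changes of 0.03, 0.02 and -0.09 for Nfya, Nfyb and Nfyc, and no subunit passed. In that contrast 14 genes passed edgeR's test (0.0908% of those tested), 475 had an unadjusted p under 0.05, and other fits gave 7 to 33.

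**Figure D2:**
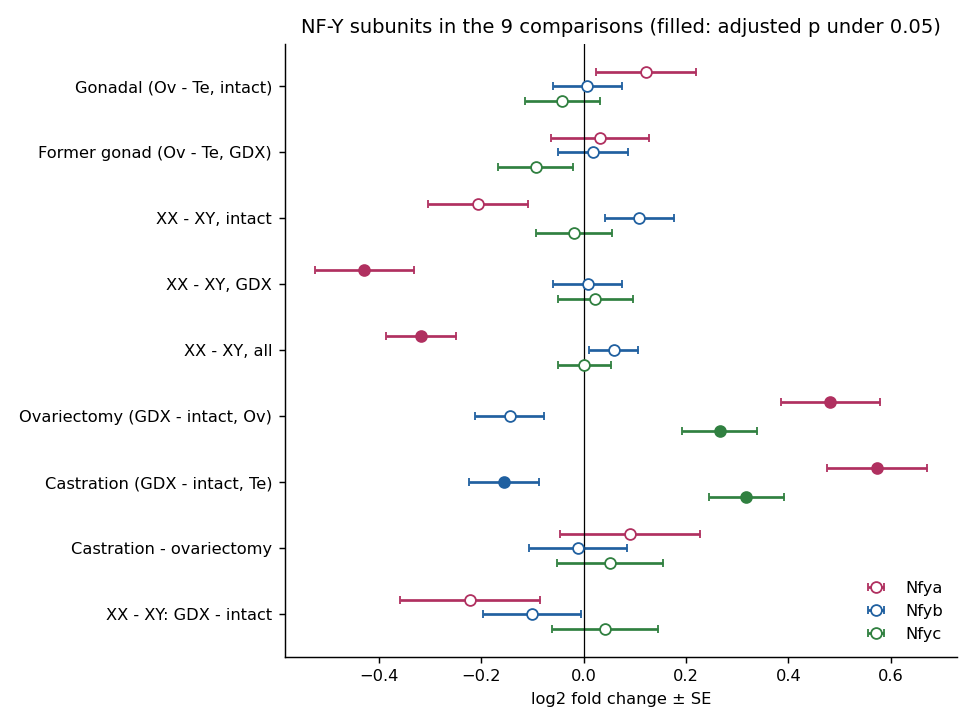
Fitted log2 fold changes of Nfya, Nfyb and Nfyc (points) with standard errors (bars) in the tested contrasts, from 1 model over 48 mice; filled points passed an adjusted p of 0.05. Nfya rose after both operations (0.48 and 0.57) and was lower in XX than in XY mice (-0.32).

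The chromosomal effect compared the 24 XX with the 24 XY mice over all gonadal states. Nfya was lower in XX mice by a log2 fold change of -0.32 (SE 0.07, edgeR adjusted p = 0.000224). Nfyb at 0.06 (SE 0.05, edgeR adjusted p = 0.363) and Nfyc at 0.00 (SE 0.05, edgeR adjusted p = 0.984) did not pass. So 1 of 3 subunits passed, against 36.7% of tested genes. With library totals the share of calls higher in XX moved from 59.8% to 28.1%.

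Split by gonadal status, the Nfya difference was -0.43 (SE 0.10, edgeR adjusted p = 0.000415) in GDX mice, from means of 14.7 CPM in XX and 19.8 CPM in XY. Of the 12 XY GDX mice, 10 lay above every XX GDX mouse. In GDX mice 1 of 3 subunits passed, against 34.3% of tested genes. In Intact mice the difference was -0.21 (SE 0.10) and no subunit passed (edgeR adjusted p = 0.184 for Nfya), against 10.7% of tested genes. With 1 surrogate variable the Intact value was -0.25 and passed (edgeR adjusted p = 0.0337). Without the 5 libraries over 11% unmapped it was -0.42 and passed (edgeR adjusted p = 0.00298). That last fit kept only replicates 5 and 6 of XY Te Intact, whose Nfya levels were 15.1 and 14.6 CPM. The mice of that group left out had 7.55 to 13.4 CPM. The GDX and Intact differences were not shown to differ from each other (-0.22, SE 0.14, edgeR adjusted p = 0.491), a contrast in which 2.12% of genes passed and no subunit did.

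Immune cell markers moved with sex chromosome type in the same mice. The summed level of 5 macrophage markers found in the table was 120 to 309 CPM in XX GDX and 304 to 895 CPM in XY GDX mice, and 4 of 5 were lower and 1 higher in XX GDX. It was 174 to 515 CPM in XX Intact and 230 to 688 CPM in XY Intact mice, with 3 of 5 lower. The 4 neutrophil markers summed to 2.32 to 7.63 CPM in XX GDX and 15.2 to 112 CPM in XY GDX mice, and all 4 were lower. In Intact mice all 4 were lower in XX too, with sums of 2.37 to 35.7 CPM in XX and 6.78 to 790 CPM in XY. In GDX mice 5 of 6 lymphocyte markers were lower in XX as well, at low summed levels of 1.26 to 9.43 CPM. In Intact mice 0 of 6 passed. Of 4 endothelial markers 1 was lower in XX GDX mice and 1 in XX Intact mice. Over all tested genes 34.3% passed in either direction in GDX and 10.7% in Intact mice. With the macrophage level as a covariate, an alternative chosen after seeing the data, the Nfya difference was -0.15 over all mice and -0.20 in GDX mice. Neither passed (edgeR adjusted p = 0.516 and 0.556). Under this covariate 1443 genes passed over all mice and 1141 in GDX mice, against 5657 and 5288 without it. Its ranges in XX and XY GDX mice barely overlap, so the fit can hardly tell macrophage level from sex chromosomes. With the share of reads outside genes as covariate, the Nfya difference was -0.21 over all mice and passed (edgeR adjusted p = 0.0150). In GDX mice it was -0.21 and did not pass (edgeR adjusted p = 0.126).

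Ratios of 2 subunits within a library do not depend on how libraries are scaled. They were taken as the log2 ratio of reads plus a pseudocount of 0.5, and compared with two-sided permutation tests within the other factors of the design, adjusted over 12 comparisons. The Nfya/Nfyb ratio rose by 0.63 after ovariectomy (permutation adjusted p = 0.0001265) and by 0.74 after castration (permutation adjusted p = 8.43e-05). It went from a mean of -1.33 to -0.70 in mice with ovaries and from -1.47 to -0.73 in mice with testes. The Nfyc/Nfyb ratio rose by 0.40 and 0.47 (permutation adjusted p = 0.00132 and 0.000225). So both Nfya and Nfyc gained on Nfyb within the same libraries.

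The Nfya/Nfyc ratio rose by 0.22 after ovariectomy (permutation adjusted p = 0.00372). After castration it differed by 0.27 and did not pass (permutation adjusted p = 0.100), although without replicate 5 of XX Te Intact, the highest of its group at 0.73, the difference was 0.34 and passed (permutation adjusted p = 0.0111). Against sex chromosomes, both ratios that hold Nfya were lower in XX than in XY mice, by -0.36 for Nfya/Nfyb and -0.30 for Nfya/Nfyc (permutation adjusted p = 0.00066 and 0.000912). Nfyc/Nfyb differed by -0.07 (permutation adjusted p = 0.376). No ratio passed for gonadal type in Intact mice, with differences of 0.13, 0.17 and -0.04, but without that same XX Te Intact mouse Nfya/Nfyc differed by 0.24 and passed (permutation adjusted p = 0.0263).

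**Figure D3:**
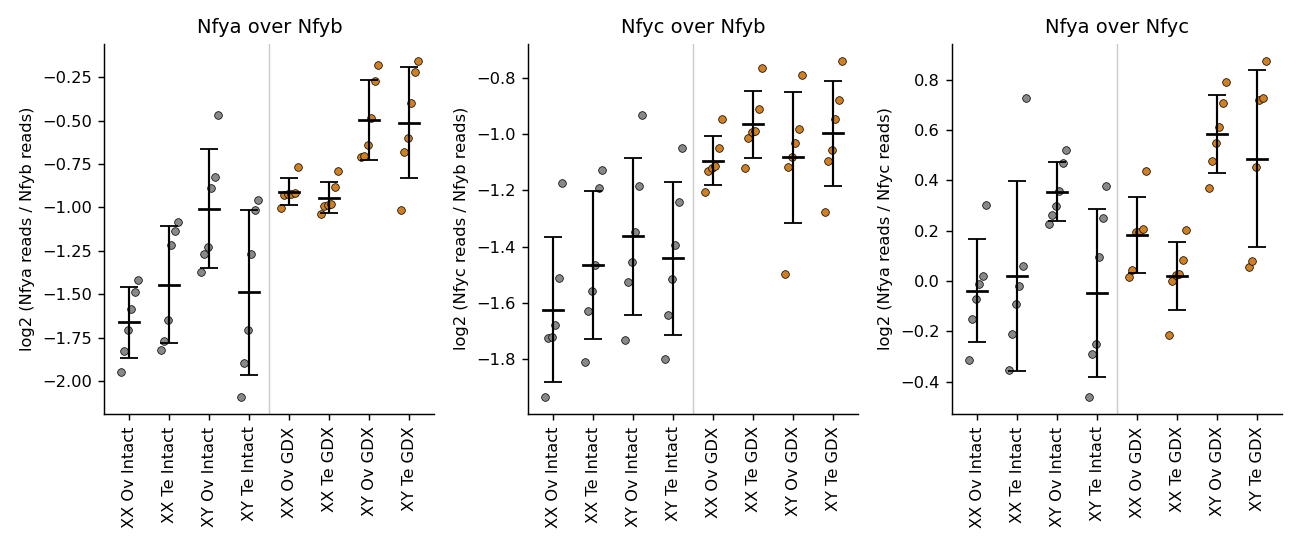
log2 ratio of Nfya to Nfyb, Nfya to Nfyc and Nfyc to Nfyb reads within each of the 48 libraries (points), by group, with the mean and SD of each group of 6. Nfya/Nfyb rises from group means between -1.66 and -1.01 in Intact mice to means between -0.94 and -0.50 in GDX mice, with XY GDX mice highest.

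The mouse-to-mouse relation of the subunits was read from deviations of TMM-scaled log2 CPM from the group mean, over 24 Intact and 24 GDX mice apart. Nfya and Nfyc had Pearson's r = 0.41 in Intact mice (permutation p = 0.0626, adjusted p = 0.469 over 30 relations) and Spearman's rho = 0.44 (permutation p = 0.0407, adjusted p = 0.407). Without the 2 mice farthest from the median of Nfya, r was 0.25. In GDX mice r was 0.10 and rho 0.15 (permutation p = 0.684 and 0.512). Nfya and Nfyb had r of 0.01 in Intact and -0.04 in GDX mice, and Nfyb and Nfyc 0.14 and 0.08. None of the 30 relations, which include each pair within each group of 6, passed after adjustment.

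Within single groups the extremes were Nfya with Nfyc in XY Ov Intact (r = 0.90, exact permutation p = 0.0181, adjusted p = 0.271) and Nfyb with Nfyc in XY Ov GDX (r = -0.94, exact permutation p = 0.0125, adjusted p = 0.271). Scaling mattered here. With library totals in place of TMM, r in Intact mice became 0.75 for Nfya with Nfyc, 0.55 for Nfya with Nfyb and 0.59 for Nfyb with Nfyc, and all 3 passed (permutation adjusted p = 0.0003, 0.0362 and 0.0151 over 6 relations). In GDX mice they were 0.27, 0.30 and 0.19 with that scaling, and none passed.

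**Figure D4:**
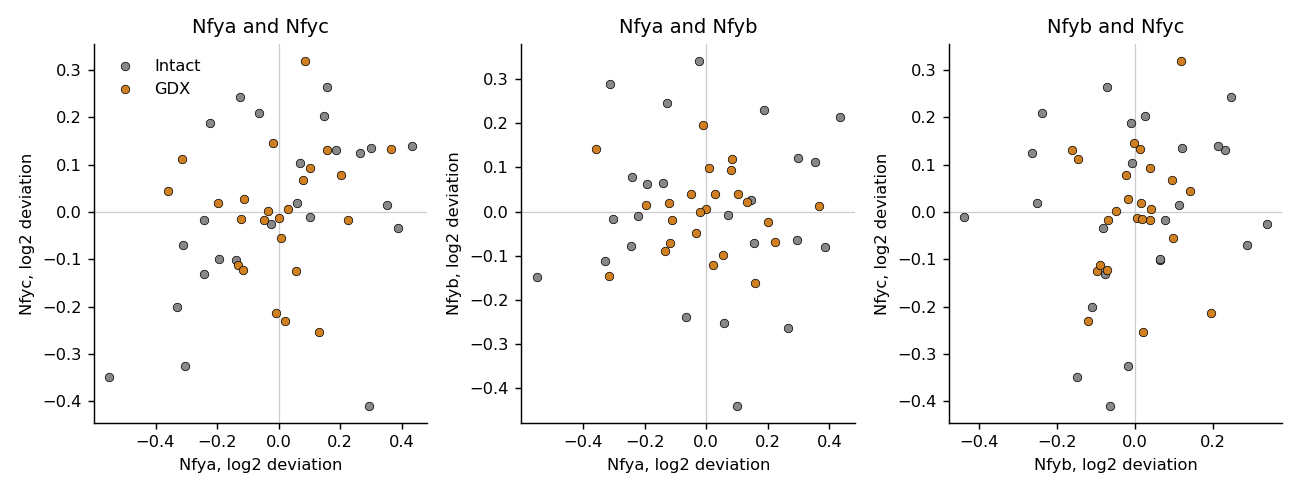
Deviation of each mouse from its group mean, in TMM-scaled log2 CPM, for each pair of subunits, with Intact and GDX mice marked apart. The clouds show no relation past the adjusted threshold, with r between -0.04 and 0.41.

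Nfya deviations in Intact mice followed the make-up of the library. With the share of reads outside genes, r was 0.67 and rho 0.69 (permutation p = 0.00033 and 0.00043, adjusted p = 0.00594 and 0.00774 over 18 relations), and r was 0.59 without the 2 mice farthest from the median of that share. In GDX mice r was 0.06. With the unmapped share, r was -0.63 in Intact mice and did not pass (permutation adjusted p = 0.0926). No relation of Nfyb or Nfyc with the 3 library measures passed. Of 42 relations with marker sums, Nfyb with lymphocyte markers in Intact mice had the lowest p (r = -0.76, rho = -0.81, permutation adjusted p = 0.00084 and 0.00126), and r was -0.72 without the 2 farthest mice. In GDX mice that relation was 0.25. Nfya with neutrophil markers in GDX mice had r = 0.71, rho = 0.52 and 0.50 without 2 mice, and did not pass (permutation adjusted p = 0.0502). Nfya with macrophage markers had r = 0.20 and rho = 0.28 in Intact mice and r = 0.41 and rho = 0.33 in GDX mice, and neither passed (permutation adjusted p = 0.571 and 0.310).

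**Figure D5:**
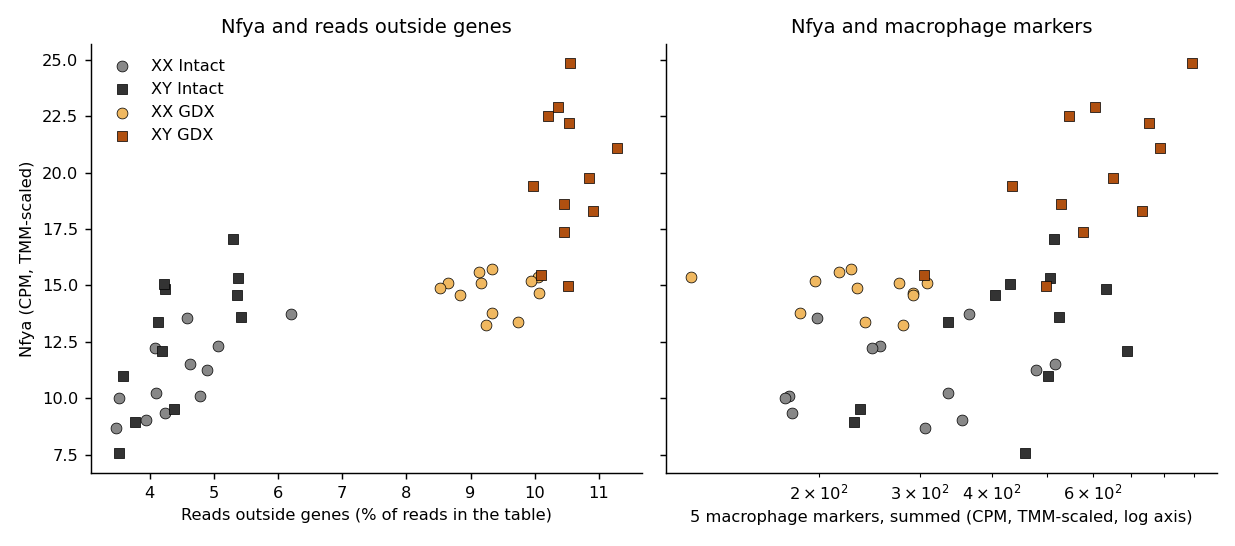
Nfya level in TMM-scaled CPM against the percent of reads outside genes (left) and against the summed level of 5 macrophage markers in CPM on a log axis (right) in each of the 48 libraries, with sex chromosomes and gonadal status marked. Reads outside genes are mapped reads counted on no gene feature, which may include reads within introns. In the left panel Intact mice lie between 3.47% and 6.20% and GDX mice between 8.52% and 11.3%, with no library between.

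The genes most like each subunit were found by Pearson's r of deviations from group means over 48 mice, among 11765 genes whose mean was 1 or more on the log2 CPM scale. For Nfya these were Celf2 (r = 0.85), Dennd4b (0.82), Plekhm3 (0.81), Mark2 (0.80) and Prex1 (0.79), with r of 0.80 to 0.89 in Intact and 0.65 to 0.83 in GDX mice. For Nfyb they were Ttc37 (r = 0.74), Usp24 (0.72), Zzef1 (0.71), Gtf2i (0.71) and Ppp6r3 (0.70). These Nfyb values came mainly from Intact mice, where r was 0.75 to 0.82, against 0.10 (Gtf2i) to 0.52 (Zzef1) in GDX mice. For Nfyc they were Slc10a3 (r = 0.67), Card6 (0.63), Letmd1 (0.63), Ndrg3 (0.62) and Taf3 (0.61), with r of 0.64 (Card6) to 0.81 (Ndrg3) in Intact and 0.28 (Ndrg3) to 0.67 (Card6) in GDX mice. The subunits were not among each other's nearest genes. Nfyc stood 3491st for Nfya (r = 0.31) and Nfyb 6359th (r = 0.00), where the median r with Nfya over all compared genes was 0.07. All these points share libraries and their depth.

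Pnpla3 was near the lower limit of these libraries, with group means of 1.38 CPM in XX Ov Intact, 0.440 in XX Te Intact, 1.29 in XY Ov Intact and 0.358 in XY Te Intact, and 1.06, 0.937, 1.96 and 1.90 CPM in the same genotypes after GDX. Its gonadal effect was 1.73 (SE 0.50, edgeR adjusted p = 0.00962), and its castration effect was 1.73 (SE 0.50, edgeR adjusted p = 0.0028), while ovariectomy gave 0.10 (SE 0.43, edgeR adjusted p = 0.842). Without the 5 libraries over 11% unmapped, the gonadal and castration effects did not pass, at 1.48 and 1.49 (edgeR adjusted p = 0.0583 and 0.0563). That fit kept only replicates 5 and 6 of XY Te Intact. With the macrophage covariate the gonadal effect did not pass (edgeR adjusted p = 0.0745). Between mice, its highest correlations were with Nfyb, r = 0.40 in Intact and 0.42 in GDX mice, and none of 6 passed (lowest permutation adjusted p = 0.197).

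The relatives and partners of NF-Y were described as lists, each by the number of tested genes that passed and by its median. Over all tested genes the share that passed was 25.3% for the gonadal, 36.7% for the chromosomal, 69.4% for the ovariectomy and 63.3% for the castration effect, with medians of 0.04, 0.05, 0.06 and 0.07. Counts of the reported fit are read against these shares. Counts under an alternative are not, since the number of passing genes moves as well. With the macrophage covariate 1443 of 15414 genes passed for sex chromosomes and 1607 for gonadal type. Without the 5 libraries over 11% unmapped, 6201 of 16406 genes passed for castration and 6026 for gonadal type. The alternatives that moved a list's counts most are given beside it.

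Histone-fold relatives are 5 proteins with folds like those of NFYB and NFYC that serve in other complexes. All 5 fell after ovariectomy (median -0.83) and after castration (median -0.74), as they did with library totals. Nfyc rose after both operations. Nfyb had -0.14, which did not pass, and -0.16, and these were 0.064 and 0.048 with library totals. Chrac1, of a chromatin accessibility complex, fell by 1.73 and 1.17 on the log2 scale (edgeR adjusted p = 4.93e-10 and 1.88e-06). Pole3, shared by that complex and DNA polymerase epsilon, fell by 1.19 and 0.93. None of the 5 passed for sex chromosomes, and 1 was lower in XX with library totals. With ovaries 2 were higher than with testes, 3 without the 5 libraries over 11% unmapped and 0 with the macrophage covariate.

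Partner factors are 17 genes for proteins known to bind beside NF-Y or to be recruited with it. After ovariectomy 10 rose and 3 fell (median 0.43), and after castration 6 rose and 5 fell (median 0.17), shares near those of all tested genes. With library totals 13 rose and 2 fell, and 10 rose and 2 fell, and without the 5 libraries castration gave 3 and 3. Among the partners that passed, Ep300 and Crebbp had the highest values after ovariectomy, 0.81 and 0.75. Usf2, an E-box factor, fell by 0.95 on the log2 scale after ovariectomy and by 0.56 after castration.

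For sex chromosomes 3 partners were higher in XX and 2 were lower, Xbp1 at -0.26 and Usf1 at -0.20, a share near that of all tested genes. With library totals 1 was higher and 3 were lower, and with the macrophage covariate 0 and 1. Xbp1, an endoplasmic reticulum stress factor, was also lower with ovaries than testes at -0.60 (edgeR adjusted p = 1.03e-06). In that contrast 1 partner was higher and 2 were lower, or 1 and 6 without the 5 libraries.

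Other factors named for CCAAT or Y boxes, the C/EBP, nuclear factor I and Y-box proteins, gave 11 tested genes. After ovariectomy 4 rose and 2 fell, and after castration 2 rose and 2 fell, smaller shares than those of all tested genes. With library totals the counts were 7 and 0, and 4 and 0, and without the 5 libraries castration gave 1 and 1. Nfib rose by 0.63 and 0.56 after the operations and Nfic by 0.75 after ovariectomy. Ybx1 had -0.18 after ovariectomy and Cebpg -0.17 after castration, and both turned positive with library totals, at 0.036 and 0.035. For sex chromosomes 4 were higher in XX, Cebpe most at 0.43, but 2 with DESeq2 size factors, 1 with library totals, 1 without the 5 libraries and 0 with the macrophage covariate. For gonadal type 2 were lower with ovaries, and 0 with library totals.

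Genes with NF-Y-bound promoters known from other work were grouped by role. Of 11 tested cell cycle genes, 9 were lower in XX than XY mice (median -0.49), where 36.7% of all tested genes passed in either direction. Among them were Top2a, a DNA topoisomerase, at -1.26 (edgeR adjusted p = 4.23e-07), and the mitotic cyclin Ccnb1 at -0.81. Ccnb1 was near the lower limit of these libraries, with a mean log2 CPM of -0.42, below that of Pnpla3 at 0.39. With the macrophage covariate 1 of 11 passed, where 1443 of all 15414 tested genes did, against 5657 in the reported fit. Split by gonadal status, 9 of 11 were lower in XX GDX mice (median -0.71), against 34.3% of tested genes passing in either direction. In Intact mice 0 of 11 passed (median -0.24), against 10.7% of tested genes. The difference between GDX and Intact mice passed in 0 of 11. After ovariectomy 1 rose and 5 fell, and after castration 2 rose and 5 fell, shares near or below those of all tested genes. Without the 5 libraries castration gave 0 and 5, and with library totals 2 and 3. Cdk1, the mitotic kinase, fell by 1.15 and 0.97 on the log2 scale after the operations. For gonadal type 2 were higher and 1 lower with ovaries, or 0 and 1 without the 5 libraries.

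Of 12 sterol and lipid genes, 5 were higher and none was lower in XX mice, a share near that of all tested genes. With library totals 2 were higher, and with the macrophage covariate none. After ovariectomy 4 rose and 1 fell, and after castration 3 rose and 2 fell, smaller shares than those of all tested genes. Without the 5 libraries castration gave 1 and 3, and with library totals 5 and 2. Fasn, fatty acid synthase, rose by 1.37 and Acaca, acetyl-CoA carboxylase, by 1.04 after ovariectomy. After castration Acaca stood at 0.85 and the desaturase Scd1 at -1.07. For gonadal type 1 was higher, Pnpla3, and 1 lower, Gpam, or 0 and 3 without the 5 libraries.

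Of 10 endoplasmic reticulum stress genes, 8 were lower with ovaries than testes in Intact mice (median -0.41), where 25.3% of all tested genes passed in either direction. The count was 7 without the 5 libraries, 9 with library totals and 5 with the macrophage covariate. Among them were the chaperones Hyou1 at -1.14 and Sdf2l1 at -0.86 (edgeR adjusted p = 3.33e-05 and 4.3e-05). After ovariectomy 6 rose and 1 fell, and after castration none rose and 5 fell, shares near or below those of all tested genes. With library totals these were 6 and 0, and 2 and 3. For the difference of castration and ovariectomy effects, 0 were higher and 4 lower (median -0.44), where 5.6% of all tested genes passed in either direction. The count lower was 3 with library totals and 2 with the macrophage covariate. For sex chromosomes 1 was higher and 1 lower in XX. With the share of reads outside genes as a covariate, no gene of the 6 lists passed for ovariectomy, and most genes named above for the operations changed sign. Whether any listed gene was bound by NF-Y in these livers was not tested.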

How the data were processed

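Liver RNA libraries (KAPA mRNA HyperPrep), 1 per mouse, were mapped by the authors with STAR 2.7.10a to GRCm39. The deposited table holds raw counts of reads per gene. The annotation release and strand setting are not given in the sources used here, so reads of a gene and an antisense partner may not be separated. The 4 summary lines were kept out of library sizes and tests. DESeq2 1.36.0 is also named in the submitters' notes.

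Counts of 15414 genes that passed filterByExpr were fitted with edgeR 4.0.16 (R 4.3.3), with TMM scaling, 8 group means, a robust quasi-likelihood test and Benjamini-Hochberg adjustment over all tested genes at 0.05. Positive values are higher in Ov, in XX or after GDX. All 48 mice entered, and replicate numbers are only names. No pair among 120 pairs of mice of 1 group agreed within sampling noise (lowest chi-square per gene 8.57). Ratios and correlations used Python 3.11.15 with numpy 2.4.6 and scipy 1.17.1, with exact tests or 100000 permutations. Scripts were tested on simulated data. Alternatives were DESeq2 1.42.0 size factors and Wald tests, library totals, other filters, fits to the compared groups alone, a library covariate, a surrogate variable (sva 3.50.0) and each mouse left out. A macrophage covariate and the fit without 5 libraries were added after seeing the data. 

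The members and gene lists were chosen with earlier results of these data known. Besides the subunits and Pnpla3, each list's 2 highest and 2 lowest passing genes per effect could be named, and the 5 genes most like each subunit. A gene that this rule would name is not reported here. Listed genes not found under their symbol were Adgre1, Ybx3 and Hmgcs1, and Cdc25c was not tested. Promoter counts were not set against expression, since 62.2% of tested genes had a window. Coordinates and exon lengths come from NCBIM37 and promoters from RefSeq GRCm38.p6.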

Additional observations from a re-analysis of the deposited data

Results flagged for a closer look

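In 56 sets of 6 mice, 3 held a mouse far from the others by Dixon's criterion, where chance marks about 1 set in 20. Pnpla3 was at 5.27 CPM in 1 XY Te GDX mouse, against 2.13 CPM in the next, and at 3.50 CPM in 1 XY Ov Intact mouse, against 1.40 CPM in the next. The log2 Nfya/Nfyb ratio was -0.77 in 1 XX Ov GDX mouse, against -0.92 in the next. No subunit level stood apart in this way in any group.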

How the results depend on the processing

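Leaving out each of 48 mice in turn kept every passing Nfya and Nfyc call, with Nfya between 0.46 and 0.52 for ovariectomy, 0.52 and 0.62 for castration and -0.39 and -0.29 for sex chromosomes. Nfyb ranged from -0.18 to -0.11 for ovariectomy (10 of 48 fits passed) and from -0.18 to -0.13 for castration (38 of 48 passed). The Nfya/Nfyc ratio ranged from 0.13 to 0.24 for gonadal type and from 0.23 to 0.34 for castration, each passing in 1 fit, without XX Te Intact replicate 5. A pseudocount of 5 changed no ratio call. The causes of the changes below were not tested.

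For Nfyb ovariectomy, values of -0.15 with DESeq2 size factors, -0.15 by DESeq2's Wald test, -0.17 with the macrophage covariate and -0.24 with a surrogate variable passed. For Nfyb castration, values of -0.18 with no filter beyond 1 count, -0.11 with at least 10 counts in every mouse, -0.50 with the share of reads outside genes, -0.11 with the macrophage covariate and -0.19 without the 5 libraries over 11% unmapped did not pass, and library totals gave 0.048. For Nfya and sex chromosomes, the macrophage covariate gave -0.15 over all mice and -0.20 in GDX mice, the share of reads outside genes gave -0.21 in GDX mice, and none passed. In Intact mice -0.42 without the 5 libraries and -0.25 with a surrogate variable passed. With library totals the Intact correlations were 0.55 (Nfya with Nfyb), 0.75 (Nfya with Nfyc) and 0.59 (Nfyb with Nfyc).

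The share of reads outside genes, whose Intact and GDX ranges do not overlap, turned the ovariectomy values of Nfya to -0.50 and Nfyc to -0.25, and the castration values to -0.44 and -0.21. It likewise turned the ovariectomy values of Pole3 (0.72), Chrac1 (0.76), Usf2 (0.038), Ep300 (-1.11), Crebbp (-0.62), Nfib (-0.041), Nfic (-0.81), Cdk1 (0.20), E2f1 (-0.70), Fasn (-0.14), Acaca (-0.0081), Sdf2l1 (0.86) and Hyou1 (-0.31). It turned the castration values of Pnpla3 (-1.13), Pole3 (0.99), Chrac1 (1.35), Usf2 (0.44), Rfx5 (-1.20), Ep300 (-1.40), Cebpg (0.12), Nfia (-0.59), Nfib (-0.14), Cdk1 (0.40), Cdc25b (-0.36), Acaca (-0.25) and Sdf2l1 (0.22). Library totals turned Ybx1 (ovariectomy, 0.036) and Cebpg (castration, 0.035), and the macrophage covariate turned Herpud1 (sex chromosomes, -0.027).

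Across alternatives the number of passing genes ran from 1607 to 6026 for the gonadal effect (3907 in the reported fit), 7 to 33 for the former gonad (14), 1443 to 7385 for sex chromosomes (5657), 726 to 2561 in Intact mice (1648) and 1141 to 7297 in GDX mice (5288). It ran from 20 to 12711 for ovariectomy (10695), 1161 to 11170 for castration (9758), 506 to 3155 for their difference (863) and 2 to 661 for the chromosomal effect in GDX against Intact mice (327). With library totals the share of calls that were higher moved from 55.6% to 68.1% (gonadal), 39.9% to 24.5% (chromosomal, Intact), 56.8% to 18.8% (chromosomal, GDX) and 19.0% to 6.97% (GDX against Intact). Among values that passed in neither fit, sign changed in 44 over 14 results. Nfya, Nfyb and Nfyc had median reads of 212 to 474.5 and Pnpla3 14.5, and counting error was not separated from the spread between mice.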
